A study of Mus musculus with 3 samples.

Results

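The genes described here are the enzymes of heme synthesis and the mitochondrial iron importer, 9 genes in all out of the 32285 in the deposited tables: Alas1, Alas2, Alad, Uros, Urod, Cpox, Ppox, Fech and Slc25a37. Each was taken by its symbol, and 9 of the 9 symbols matched a row once in each table. They were measured by droplet single-cell RNA sequencing (10x Genomics, 3′ kit version 2) of mouse bone marrow from the long bones, hips and spine, in 3 sorted populations with 1 library each. LSK and LK are the usual names for lineage-negative marrow cells that carry both Sca-1 and Kit, and for lineage-negative cells that carry Kit. TBM stands for total bone marrow. The lineage-negative cells were enriched with antibodies to Ter119, which marks maturing red cells, and to lymphoid and myeloid antigens (CD5, CD8a, CD45R, CD11b, Ly-6C, Ly-6G). The labels name no genotype, strain, treatment, age, sex or number of mice, and do not say whether Sca-1 positive cells were kept out of the LK gate.

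After filtering, 1067 LSK, 3461 LK and 4217 TBM cells were used, from 1091, 3560 and 4317 deposited barcodes. The labels state 1070, 3441 and 3984 cells. The libraries held 11836820, 49936180 and 21958139 unique molecular identifiers (UMIs, each standing for a captured transcript), with medians of 9688, 13683 and 3347 UMIs per cell. Levels are UMIs of a gene over all UMIs of the cells summed, scaled to counts per 1000000 (CPM). Since each population is 1 library and cells of a library are not replicates, no test between populations was possible. The 95% intervals below cover counting error alone, and a difference counts as a call at a CPM ratio of at least 2 with at least 20 UMIs over both sides. Markers of stem and multipotent progenitors (Mecom, Hlf, Procr, Mllt3, Hoxa9) summed to 379 CPM in LSK, 56.0 CPM in LK and 18.5 CPM in TBM. Markers of hemoglobin-making erythroblasts summed to 52.2, 22.6 and 91691 CPM. The LSK and LK libraries shared 6 cell barcodes, LSK and TBM shared 6, and LK and TBM shared 26.

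Heme is made in a chain of enzymatic steps that begins and ends in the mitochondrion. Aminolevulinate synthase condenses glycine with succinyl-CoA, and exists as a housekeeping form, Alas1, and an erythroid form, Alas2. Alad, Uros and Urod act in the cytosol, Cpox and Ppox in the mitochondrial envelope, and Fech, the ferrochelatase, inserts iron in the matrix. Slc25a37, mitoferrin-1, carries that iron across the inner mitochondrial membrane of erythroid cells. In marrow the pathway is best known for supplying hemoglobin, while granulocyte precursors use heme for myeloperoxidase and other heme enzymes.

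The genes lie apart in the genome (GRCm38, the build of mm10, with GENCODE M21 gene limits). Alas1 lies at chr9:106233455-106248654 on the minus strand and Alas2 at chrX:150547375-150570638 on the plus strand. Alad lies at chr4:62509169-62519918, Uros at chr7:133686243-133710072 and Urod at chr4:116989965-116994413, all on the minus strand. Cpox lies at chr16:58670292-58717636 on the plus strand. Ppox lies at chr1:171275990-171281186 and Slc25a37 at chr14:69241848-69285112, both on the minus strand. No exon of another gene on the same strand overlapped those of the 9 genes.

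Regulatory letters near these starts are shown because the values below turn on the contrast between Alas1 and the erythroid-rich steps. Erythroid promoters are known for GATA-1 sites, searched here as GATAA on both strands, and for KLF1 sites, searched as CACCC on both strands. In 300-base windows around RefSeq starts, from 250 bases before the start, GATAA was found in 25.4% and CACCC in 57.5% of 32851 windows. Of the 9 genes, 7 had usable windows, 10 windows in all. GATAA was found in 1 window each of 3 genes, Alas2, Cpox and Uros, and CACCC in 6 of the 10 windows. The first stretch below ends where the GENCODE gene begins, and the second at a RefSeq start. In the first, from chrX:150547167-150547374 (plus strand, RefSeq table of GRCm38.p6), the capitals mark GATAA read on the minus strand, 86 bases before the RefSeq start. In the second, from chr16:58669958-58670207 (plus strand, the same table), the capitals mark GATAA and CACCC, both read on the minus strand.
Alas2 upstream: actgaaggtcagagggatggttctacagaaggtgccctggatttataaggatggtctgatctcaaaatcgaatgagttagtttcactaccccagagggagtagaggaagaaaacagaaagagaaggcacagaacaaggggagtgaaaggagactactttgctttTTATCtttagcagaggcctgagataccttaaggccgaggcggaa
Cpox upstream: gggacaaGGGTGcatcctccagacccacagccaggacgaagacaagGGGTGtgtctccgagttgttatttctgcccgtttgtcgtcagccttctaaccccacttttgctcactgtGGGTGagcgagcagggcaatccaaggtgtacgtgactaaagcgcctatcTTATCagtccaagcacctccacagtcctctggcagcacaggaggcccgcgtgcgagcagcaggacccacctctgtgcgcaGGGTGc

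Alas1 had no GATAA in its 2 windows, which overlap. Both held CACCC, as did windows of the erythroid-rich steps, and it is left in lower case in the Alas1 stretch below. Both also held the palindromic site of NRF1, a factor known for genes of mitochondrial proteins. The site was searched for on both strands by its 10 letters, shown in capitals below. That site was present in 0.971% of the 32851 windows. It began 30 bases after the start of one Alas1 transcript and 195 bases before the start of the other, within chr9:106247906-106247935 (minus strand, GRCm38.p6). The last sequence is the iron-responsive element of Alas2, the hairpin through which iron shortage is known to hold back translation of this mRNA. It spans bases 85 to 111 of transcript Alas2-201, at chrX:150547459-150547485 (plus strand, GRCm38), with the loop letters in capitals. Alas1 has no such element, so the amount of Alas2 mRNA given below is not the amount of its enzyme. These letters are descriptions of the windows and not evidence of binding.
Alas1 start region: cgcacccaagGCGCATGCGCggcggtcact
Alas2 iron-responsive element: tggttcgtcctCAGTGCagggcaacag

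Across the sorted populations, the Kit-positive progenitors held the pathway with Alas1 and practically no Alas2. Alas1 stood at 44.5 CPM in LSK (95% interval 40.8 to 48.5), 289 CPM in LK (285 to 294) and 67.3 CPM in TBM (63.9 to 70.8). Alas2 had 0 UMIs in LSK, 5 UMIs or 0.100 CPM in LK (0.0325 to 0.234), and 399 CPM in TBM (391 to 408). Alas1 was thus highest in LK and Alas2 in TBM, and the orders of these isoforms did not match. Of the aminolevulinate synthase UMIs, Alas2 made up 0 of 527 in LSK (95% interval up to 0.698%, where 3 UMIs would be 0.569%), 0.0346% in LK (0.0112 to 0.0807) and 85.6% in TBM (84.9 to 86.3).

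**Figure D1:**
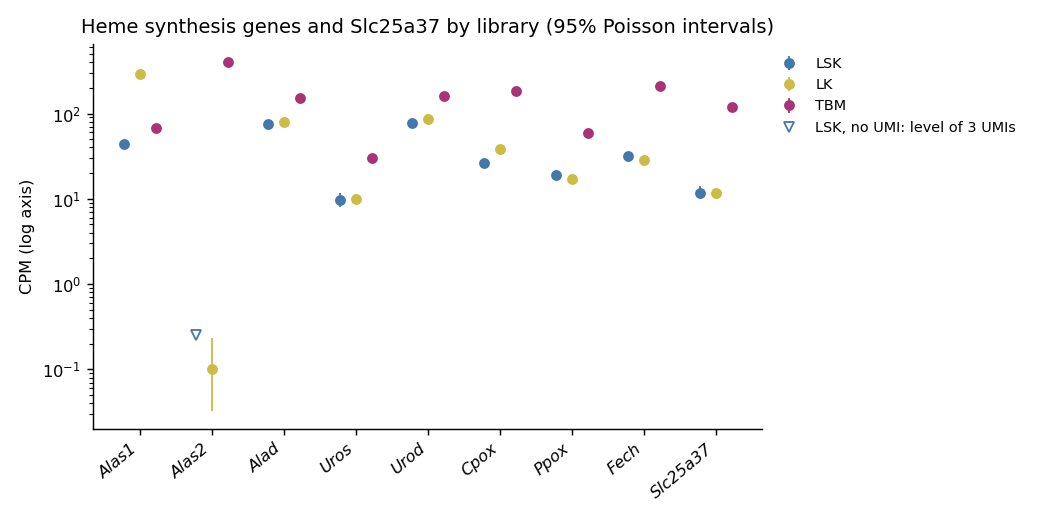
Level of each gene in the LSK, LK and TBM libraries, in CPM on a log axis, with exact 95% counting intervals and an open triangle at the level of 3 UMIs where none was seen. Alas1 peaks in LK at 289 CPM, while Alas2 is at 0 UMIs in LSK and at 399 CPM in TBM.

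The cytosolic steps lay close together in both progenitor libraries. Alad, which joins 2 aminolevulinate molecules into porphobilinogen, stood at 74.5 CPM in LSK, 79.2 CPM in LK and 152 CPM in TBM. Uros, which closes the tetrapyrrole ring, was the lowest of the cytosolic steps, at 9.72, 10.0 and 30.2 CPM. Urod, which trims the side chains of the ring, stood at 78.0, 85.4 and 159 CPM. None of these differed by 2-fold between LSK and LK, and the counting intervals of LSK and LK overlapped for each. Alad and Uros each have a housekeeping and an erythroid promoter, and counting at the 3′ end does not tell those transcripts apart.

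The mitochondrial steps were low in both progenitor libraries and higher in TBM as a whole. Cpox, which oxidises coproporphyrinogen, stood at 26.2 CPM in LSK, 38.4 CPM in LK and 184 CPM in TBM. Ppox, the next oxidase, stood at 19.0, 17.2 and 59.2 CPM, and Fech, on chromosome 18, at 31.8, 28.2 and 213 CPM. Slc25a37 was at 11.8 CPM in both LSK (9.95 to 14.0) and LK (10.9 to 12.8), and at 120 CPM in TBM. The intervals of LSK and LK overlapped for Ppox, Fech and Slc25a37. In the TBM cells in which globin genes took under 10% of UMIs, levels were nearer those of LK. Cpox stood at 37.5 CPM, Ppox at 23.3 CPM, Fech at 28.1 CPM and Slc25a37 at 17.8 CPM in them.

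LSK against LK differed at 1 gene of 8 with enough UMIs. Alas1 was lower in LSK, with a log2 ratio of -2.70 (-2.83 to -2.58), where 3.73% of the 13016 genes measured were at least 2-fold lower. None of the 8 was at least 2-fold higher in LSK, where 19.9% of all genes were. The log2 ratios of the other 7 ran from -0.55 for Cpox to 0.17 for Fech, and the median of the 8 was -0.07, beside 0.34 over all genes measured.

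LK against TBM put the isoforms on opposite sides. Alas1 was higher in LK at a log2 ratio of 2.10 (2.03 to 2.18), the 1 call in that direction among the 9 genes, where 27.3% of 13416 genes were called higher. Alas2 was lower in LK at a log2 ratio of -11.96 (-13.58 to -10.74). It was joined by Slc25a37 at -3.35, Fech at -2.92, Cpox at -2.26, Ppox at -1.78 and Uros at -1.59, so that 6 of 9 were lower, where 16.8% of all genes were. Alad at -0.94 and Urod at -0.90 were within 2-fold, and with median-of-ratios scaling, at -1.32 and -1.28, they too were lower, which made 8 of 9. These ratios, and those of LSK against TBM below, are over all TBM cells, globin-rich cells included. In the TBM cells with globins under 10% of UMIs, Alad had 44.6 CPM and Uros 7.83 CPM. Both were under the 79.2 and 10.0 CPM of LK.

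LSK against TBM, which uses the same TBM library, gave 8 of 9 lower and 0 higher, where 13.1% and 36.9% of 12916 genes were called. Alas2 was at least 1576-fold lower in LSK, with the LSK library set at a floor of 3 UMIs. Slc25a37 was lower at a log2 ratio of -3.35, Cpox at -2.81 and Fech at -2.75, and Alas1, the gene that was not called, had -0.60 (-0.74 to -0.45). The median of the 9 was -1.64, beside 0.67 over all genes. With every cell weighted alike, Alad at -0.56 and Urod at -0.55 fell within 2-fold, which left 6 of 9 lower, and with median-of-ratios scaling Alas1 was lower too, at -1.28.

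Cells with at least 50 Elane UMIs, the neutrophil elastase gene of granulocyte precursors, held most of the Alas1 of LK and less of that of the other libraries. In LK these were 1223 of 3461 cells with a median of 20229 UMIs, against a median of 9714 UMIs in the other 2238. Their granulocyte-monocyte markers (Mpo, Elane, Prtn3, Ctsg, Ms4a3, Cebpe) summed to 36103 CPM, Elane itself included. Alas1 stood at 494 CPM in them (485 to 503), against 82.0 CPM in other LK cells (78.5 to 85.7), a log2 ratio of 2.59 (2.52 to 2.66). They held 12418 of the 14453 Alas1 UMIs of the library, or 85.9%. Per cell the count ran from 0 through a median of 9 to 49, and 99.2% of these cells had at least 1 Alas1 UMI. With each cell thinned to 2000 UMIs, Alas1 was seen in 60.3% of them and in 10.6% of the other LK cells. Alas2 had 0 UMIs in these 1223 cells.

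The steps after Alas1 did not follow it in the Elane-high cells. Alad stood at 51.4 CPM, against 107 CPM in other LK cells, a log2 ratio of -1.06 (-1.16 to -0.97). Cpox had 28.8 against 48.0 CPM, Urod 65.1 against 106 CPM, Ppox 13.9 against 20.6 CPM and Fech 24.1 against 32.3 CPM, all within 2-fold. Uros had 8.83 against 11.2 CPM, and Slc25a37 had 11.4 against 12.3 CPM with overlapping intervals. Among the 8 genes with enough UMIs, 1 was therefore higher and 1 lower, where 3.81% and 13.9% of 12402 genes were. The median of the 8 was -0.49, beside -0.24 over all genes. The Alad difference was under 2-fold with every cell weighted alike, at -0.93, and with median-of-ratios scaling, at -0.82. Alas1 was thus 6.02-fold higher in these cells. Each of the 7 other measured genes was at or under its level in the other LK cells, erythroid cells included. The other LK cells include all but 3 of the 355 LK cells with at least 5 Car1 UMIs. Most steps were higher in those Car1 cells, as given below. In all LK cells outside the Car1 group, most Elane-high cells included, Cpox had 26.4 CPM, under the 28.8 CPM of the Elane-high cells. Fech had 24.3, Uros 9.08 and Ppox 15.3 CPM there, close to the Elane-high cells. Alad at 65.0 and Urod at 73.3 CPM were above them. Levels of LK cells in neither group are not given here.

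The other libraries held fewer such cells. In LSK, 14 cells had at least 50 Elane UMIs, and Alas1 stood at 462 CPM in them (399 to 533), against 29.7 CPM in the other 1053 cells (26.6 to 33.0). Those 14 cells held 188 of the 527 Alas1 UMIs of the LSK library, with 3 to 31 UMIs per cell. In TBM, 98 cells met the limit and had 347 CPM of Alas1 (321 to 375), with 0 to 26 UMIs per cell and a median of 5. That level was below the 494 CPM of the LK cells, and these 98 cells held 649 of the 1478 Alas1 UMIs of TBM, or 43.9%.

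Alas1 was ordered with the share of a cell's UMIs taken by Elane. In LK, the 807 cells with an Elane share under 0.01% had 40.4 CPM of Alas1, and the next classes of cells had 70.4, 266, 404 and 552 CPM. The 128 LK cells with an Elane share of 2% to 4% had 732 CPM (699 to 766). In TBM, cells with globins below 10% and with S100a8 and S100a9 below 5% of UMIs had, in the same classes, 25.7, 40.1, 102, 263, 464 and 569 CPM, from 1784, 300, 47, 19, 21 and 20 cells. In LK, Alad went the other way across these classes, at 127, 104, 68.2, 58.8, 44.2 and 44.6 CPM, and Slc25a37 stayed between 8.58 and 13.2 CPM. The lowest class also holds the erythroid cells described below, and cells of higher Elane share were deeper, with a median of 8933 UMIs in the lowest LK class and 19867 UMIs in the highest.

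**Figure D2:**
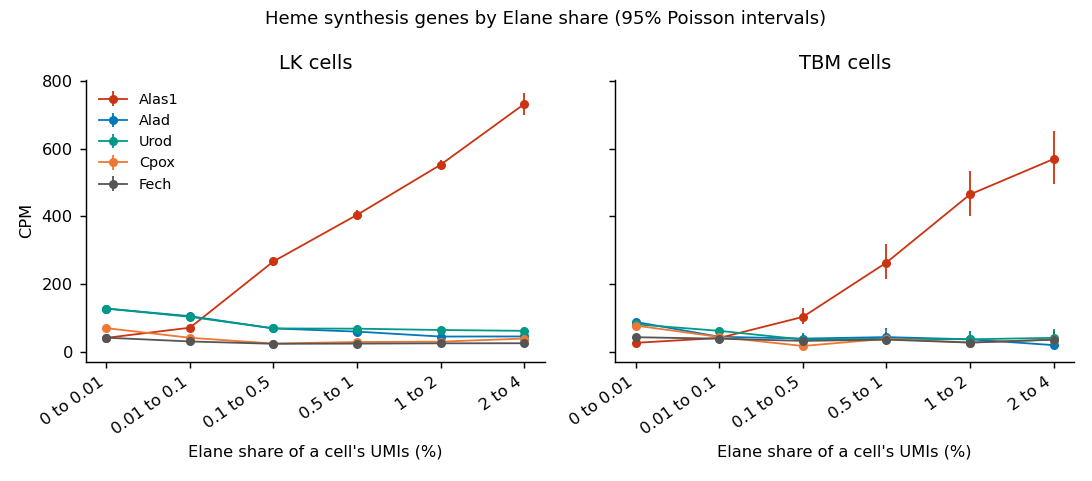
Level of Alas1, Alad, Urod, Cpox and Fech in CPM, with 95% counting intervals, in cells grouped by the percent of their UMIs taken by Elane, for LK (left) and TBM (right). Alas1 climbs from 40.4 to 732 CPM across the LK classes, while Alad goes from 127 to 44.6 CPM.

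Neutrophil-like TBM cells, by their S100a8 and S100a9, had little of the steps after Alas1. In TBM, 1503 cells in which S100a8 and S100a9, calprotectin genes of neutrophils, took at least 5% of UMIs had 73.4 CPM of Alas1. Alad stood at 8.45 CPM in them, Fech at 11.7 CPM and Cpox at 4.37 CPM. Among these cells, 1086 with at least 1% of UMIs from the granule genes Camp, Ngp and Ltf had 76.8 CPM of Alas1 (70.1 to 83.9), and 417 with less had 42.0 CPM (28.1 to 60.3). Slc25a37 stood at 13.6 CPM (10.9 to 16.7) in the granule-rich cells and at 29.0 CPM (17.7 to 44.7) in the granule-poor cells, from 87 and 20 UMIs. The granule-poor cells were shallow, with a median of 1437 UMIs, against 4530 UMIs in the granule-rich cells. TBM cells with Cd79a, a B cell receptor gene, had 19.9 CPM of Alas1, from 73 UMIs.

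Cells with at least 5 UMIs of Car1, carbonic anhydrase 1 of early erythroid progenitors, had higher levels of most steps and less Alas1. LK held 355 such cells, with a median of 9015 UMIs, and their erythroid progenitor markers (Klf1, Gata1, Epor, Car1, Rhd, Ermap, Blvrb, Tfrc) summed to 4586 CPM, Car1 itself included. Cpox stood at 160 CPM in them (149 to 173), against 26.4 CPM in other LK cells, a log2 ratio of 2.60 (2.47 to 2.74). Alad had 225 against 65.0 CPM (1.79), Urod 210 against 73.3 CPM (1.52) and Fech 67.5 against 24.3 CPM (1.47). Ppox had 36.9 against 15.3 CPM and Uros 19.8 against 9.08 CPM. Alas1 was lower, at 31.3 CPM (26.3 to 36.9) against 315 CPM, a log2 ratio of -3.33 (-3.58 to -3.09), in a comparison in which 3 of the 1223 Elane-high cells were among the Car1 cells. Slc25a37 had 11.7 against 11.8 CPM. Of the 8 genes with enough UMIs, 6 were higher and 1 lower, where 6.88% and 12.3% of 12402 genes were. The median of the 8 was 1.37, beside 0.03 over all genes. With every cell weighted alike, Uros, Ppox and Fech fell under the 2-fold limit, at log2 ratios of 0.73, 0.92 and 0.91.

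Alas2 was hardly seen in these progenitors. The 355 cells had 3 Alas2 UMIs, in 3 cells, against 139 Alas1 UMIs, so Alas2 made up 2.11% of the synthase UMIs (0.438 to 6.05). Alas1 itself was at 0 in the median cell, and 25.4% of the cells had a UMI of it. The 254 Car1 cells without Rhd had 0 Alas2 UMIs and 72 Alas1 UMIs, a level of 34.1 CPM that is near the 29.7 CPM of LSK cells with little Elane. Alad and Urod, at 156 and 171 CPM, were the highest of the genes in those 254 cells, while Fech had 29.4 CPM and Slc25a37 14.2 CPM.

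Rhd, the Rh blood group antigen of red cells, marked a smaller and deeper set of erythroid cells in LK. LK held 114 cells with at least 1 Rhd UMI, of which 101 also had at least 5 Car1 UMIs, and they were deep, with a median of 21665 UMIs, against 7140 UMIs in the Car1 cells without Rhd. Cpox stood at 238 CPM in the Rhd cells (219 to 257), against 55.9 CPM in the Car1 cells without Rhd (46.2 to 66.9), a log2 ratio of 2.09 (1.80 to 2.39). Fech had 98.9 against 29.4 CPM, a log2 ratio of 1.75 (1.35 to 2.18), and Uros 26.4 against 11.8 CPM, at 1.16 (0.48 to 1.88). Those 3 of 8 genes were higher and 0 were lower, where 5.07% and 11.3% of 8642 genes were. Alad had 270.3 against 156 CPM, Urod 230.3 against 171 CPM, Ppox 43.0 against 26.5 CPM and Alas1 56.2 against 34.1 CPM, all within 2-fold. With every cell weighted alike, Alas1 was higher at a log2 ratio of 1.17, and 1 cell held 35 of its 145 UMIs in the Rhd cells. Slc25a37 had 10.1 CPM (6.59 to 14.8) against 14.2 CPM (9.58 to 20.3), with overlapping intervals. The median of the 8 was 0.76, beside -0.03 over all genes.

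Within the Rhd cells of LK, Alad, Urod, Cpox, Ppox and Fech were ordered with the Rhd count. Cells with 1 Rhd UMI, with 2 to 4 and with at least 5 numbered 42, 34 and 38. Cpox stood at 69.6, 159 and 380 CPM in them (intervals 50.6 to 93.5, 132 to 189 and 346 to 417), and Fech at 45.9, 64.5 and 150 CPM. Uros had 22.2, 12.9 and 37.5 CPM and Slc25a37 had 9.49, 11.6 and 9.38 CPM, neither in that order. Alas1 had the opposite order, at 138, 42.6 and 21.3 CPM. Of the 114 Rhd cells, 8 also had at least 50 Elane UMIs, and the part of those 8 cells in the Alas1 value was not tested. Granulocyte-monocyte markers summed to 2888 CPM over all 114 Rhd cells. The 3 Alas2 UMIs of the Rhd cells were all in cells with at least 5 Rhd UMIs, and the others had 0. These classes also differ in depth, with median counts of 14106, 21156 and 30875 UMIs.

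**Figure D3:**
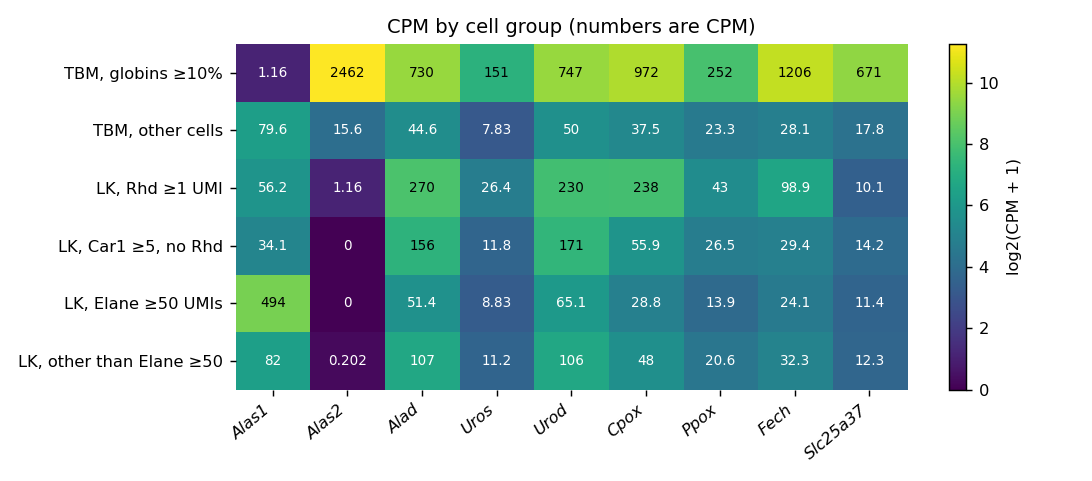
Heat map of the level of each gene (columns) in cell groups of the libraries (rows), with the CPM written in each cell and colour giving log2(CPM + 1). Alas1 is highest in the Elane group of LK, at 494 CPM, and Alas2 in the globin group of TBM, at 2462 CPM.

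TBM alone held cells rich in globin. In 448 TBM cells the adult globin genes took at least 10% of UMIs, and 56.2% of the summed UMIs of these cells were globin, while no LSK or LK cell reached that limit. Of the erythroblast markers, Slc4a1 was seen in them, while the globin genes on that list also chose the cells. Ahsp had 0 UMIs in them and in every library as a whole. That count does not tell a gene without UMIs from one not listed under that symbol. Alas2 stood at 2462 CPM in these cells (2410 to 2515), against 15.6 CPM in other TBM cells (13.9 to 17.5), 158-fold higher and a log2 ratio of 7.30 (7.13 to 7.48). All 448 cells had an Alas2 UMI, with 1 in the lowest cell, 18 in the median cell and 48 in the highest. Alas1 had 4 UMIs over the 448 cells, or 1.16 CPM (0.316 to 2.97), against 79.6 CPM in other TBM cells (75.6 to 83.8). Alas2 therefore made up 99.95% of the synthase UMIs (99.88 to 99.99), against 16.4% in other TBM cells.

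The steps after the synthase were also high in the globin cells. Fech stood at 1206 CPM (1170 to 1244), against 28.1 CPM in other TBM cells, and Slc25a37 at 671 CPM (644 to 699), against 17.8 CPM, at log2 ratios of 5.42 (5.29 to 5.56) and 5.24 (5.07 to 5.41). Cpox had 972 against 37.5 CPM at a log2 ratio of 4.69, Uros 151 against 7.83 CPM at 4.27, Alad 730 against 44.6 CPM at 4.03, Urod 747 CPM at 3.90, and Ppox 252 against 23.3 CPM at 3.43. Of the 9 genes, 8 were higher and 1 lower, where 8.67% and 61.9% of 11552 genes were, and the median of the 9 was 4.27, beside -1.52 over all genes. The ratios are on a total of which globins take 56.2%, against 0.329% in the other TBM cells. With globins, S100a8 and S100a9 left out of the total, the counts of genes higher and lower were the same.

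The globin cells hold 96.7% of the Alas2 UMIs of TBM, and in several other classes Alas2 stood to Hbb-bs as it does in the globin cells. Per 1000 UMIs of Hbb-bs, the main adult beta globin gene, the globin cells had 10.1 Alas2 UMIs (9.88 to 10.3). The S100a8 and S100a9 cells had 8.79 (7.07 to 10.8), the Cd79a cells 10.7 (7.87 to 14.2), and cells with none of the markers 9.24 (6.47 to 12.8), with at most 3 Alas2 UMIs in any of these cells. These intervals overlap that of the globin cells, so Alas2 in these classes is not read here as their own expression, and free RNA and doublets were not told apart. TBM cells with Rhd and globins under 10% had 15.2 (12.3 to 18.6), with up to 10 Alas2 UMIs in a cell. Cpox in the S100a8 and S100a9 cells, at 3.03 UMIs per 1000 Hbb-bs UMIs, was not above its ratio of 3.99 in the globin cells. Alas1 had 50.9 per 1000 in the S100a8 and S100a9 cells and 0.00476 in the globin cells.

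TBM cells with Rhd and globins under 10% of UMIs were mixed. There were 153, with 41.7 CPM of Alas1 and 62.2 CPM of Alas2, so that Alas2 made up 59.9% of the synthase UMIs (51.9 to 67.5). Neutrophil markers summed to 113661 CPM in them, and 125 of the 153 had a single Rhd UMI. In those 125, Cpox stood at 18.9 CPM and Alas1 at 64.2 CPM. In the 24 cells with at least 5 Rhd UMIs, Cpox stood at 706 CPM (635 to 782), Alad at 642 CPM, Fech at 351 CPM and Slc25a37 at 118 CPM (90.0 to 151), while Alas2 stood at 160 CPM (127 to 198) and Alas1 at 5.79 CPM. The 38 LK cells with as many Rhd UMIs had 380 CPM of Cpox, 9.38 CPM of Slc25a37 and 2.56 CPM of Alas2. In TBM, 86 cells had at least 5 Car1 UMIs, 82 of them with Rhd and 55 with globins of at least 10%, and had 929 CPM of Cpox, 919 CPM of Alas2 and 4.92 CPM of Alas1.

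The TBM cells with Rhd or with globins of at least 10% were set in order by their globin share, in classes under 1%, 1% to 10%, 10% to 20%, 20% to 40%, 40% to 60%, 60% to 80% and over 80%. The classes held 131, 22, 19, 38, 160, 176 and 55 cells, and the class under 1% holds most of the mixed cells named above. Each cell was counted in UMIs, so that a growing globin share does not by itself lower a count, but depth differed, with medians of 17636 UMIs in the class of 1% to 10% and 6632 UMIs in that over 80%. Alas2 had 0.122, 3.68, 14.0, 19.3, 18.0, 19.1 and 22.4 UMIs per cell across them. Alas1 had 0.481 UMIs per cell in the first class and at most 0.0909 in each later class. The synthase UMIs were thus mostly Alas2 from the class of 1% to 10% on, with 81 Alas2 and 2 Alas1 UMIs there.

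Cpox and Alad were high at lower globin shares than Alas2 and scarce at the highest. Cpox had 15.0 UMIs per cell (13.4 to 16.7) in the class of 1% to 10%, 16.8 in the next, and 13.5, 10.1, 4.95 and 0.655 after that. Alad had 13.4, 12.5, 10.4, 7.37, 3.88 and 0.382 UMIs per cell over the same classes. In the class of 1% to 10% each was above the 3.68 UMIs per cell of Alas2, with intervals that did not overlap, and in the class over 80% each was below 1 UMI per cell beside 22.4 of Alas2. Uros followed the same course at lower counts, with 2.14 UMIs per cell at 1% to 10% and 0.182 over 80%, and Ppox went to 0.564, against 3.64 at 1% to 10%.

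Fech, Slc25a37 and Urod kept more of their counts at the highest globin shares. Fech had 7.59, 9.74, 10.1, 9.17, 9.69 and 7.55 UMIs per cell from the class of 1% to 10% upward, nearly level. Slc25a37 had 2.68 UMIs per cell at 1% to 10%, between 4.95 and 5.79 in the 4 classes from 10% to 80%, and 3.31 (2.85 to 3.83) over 80%. Urod went to 3.15 UMIs per cell over 80%, against 10.9 at 10% to 20%. Of the UMIs of the 9 genes, Alas2 took 6.45% in the class of 1% to 10% and 58.7% over 80%, while Cpox took 26.3% and 1.71% and Alad 23.5% and 0.999%. Fech took 13.3% and 19.7%. Alas2 and Fech together were thus the larger part of the UMIs of the 9 genes in the cells with most globin.

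**Figure D4:**
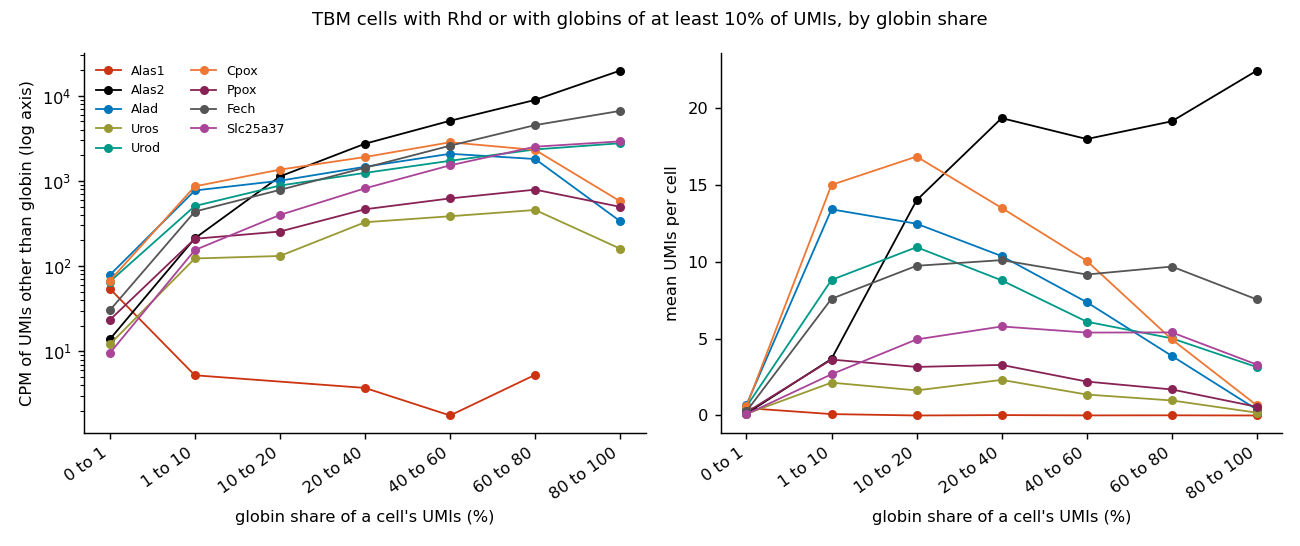
Level of each gene across classes of TBM cells with Rhd or globins of at least 10%, by the percent of UMIs that are globin, as CPM of non-globin UMIs on a log axis (left, points at 0 not drawn) and as mean UMIs per cell (right). Alas2 is highest in the class over 80%, while Cpox and Alad peak at lower shares.

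**Figure D5:**
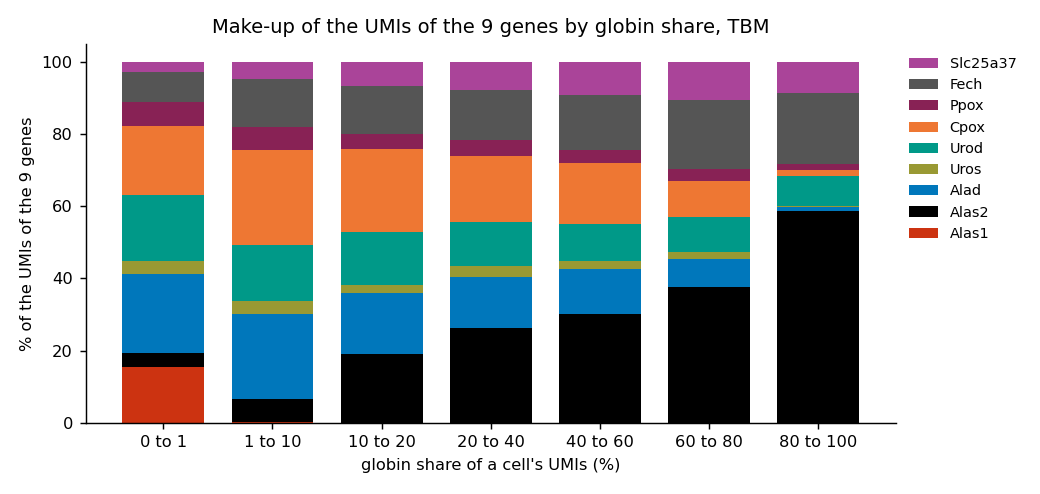
Percent of the UMIs of the 9 genes taken by each gene in the same globin classes, as stacked bars that sum to 100%. Alas2 grows from 6.45% at 1% to 10% globin to 58.7% over 80%, and Cpox shrinks from 26.3% to 1.71%.

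Per 1000000 UMIs other than globin, the courses of some genes differed from those per cell. Alas2 had 212 CPM of non-globin UMIs at 1% to 10%, and 1129, 2735, 5082, 8932 and 19754 CPM in the later classes. Fech had 437, 785, 1429, 2591, 4522 and 6644 CPM. Cpox had 864, 1358, 1909, 2842, 2310.0 and 576 CPM, and Alad 772, 1006, 1466, 2083, 1809 and 336 CPM. On this scale Cpox and Alad were highest at 40% to 60%, whereas per cell they were highest at 10% to 20% and 1% to 10%. On both scales they were lower over 80% than in the class before, and Alas2 was highest over 80%.

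The other genes of heme and iron handling, 41 in a list by role, were counted in the globin cells. In the globin cells against other TBM cells, 39 had enough UMIs, of which 22 were higher and 9 lower, with a median log2 ratio of 1.45 beside the -1.52 over all genes, where 8.67% of genes were higher and 61.9% lower. With globins, S100a8 and S100a9 left out of the total, 27 of the 39 were higher and 3 lower, beside 16.6% and 39.4% of all genes. The counts by role below are on the full total, on which a gene is more often lower than higher, and a lower call that ends on the smaller total is named as such. Of the 8 transporters of intermediates and substrates, 7 were higher and 0 lower. Slc6a9, the plasma membrane glycine transporter, had a log2 ratio of 6.43 (74.3 against 0.864 CPM), and Slc25a38, its mitochondrial counterpart, 3.14. Tspo2 had 5.37, Fam210b 4.74, Abcb10 4.31, Abcb6 3.60 and Tmem14c, which moves a porphyrin intermediate in mitochondria, 1.77.

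Of the 5 genes of iron uptake, 3 were higher and 1 lower. Tfrc, the transferrin receptor, stood at 199 against 15.2 CPM at a log2 ratio of 3.71, Slc11a2, the endosomal iron carrier, at 3.01, and Steap3, the endosomal iron reductase, at 2.67. Slc25a28, mitoferrin-2 and the broadly expressed relative of Slc25a37, had 3.48 against 9.88 CPM, from 12 UMIs, and this lower call ended without globins, S100a8 and S100a9 in the total, at -0.52. Tfr2 was within 2-fold at 0.90 and higher on that smaller total, at 1.88.

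Of the 7 genes of iron-sulfur cluster assembly, 3 were higher and 1 lower. Among the higher were Isca1 at 3.53 and Glrx5, a glutaredoxin whose loss is known from zebrafish to stop heme synthesis, at 3.33. Iscu was within 2-fold at -0.39 and Fdx2 lower at -2.28, and at -1.30 on the smaller total. Of the 5 genes of iron storage and sensing, Fth1 at 1.45 and Ncoa4, the receptor that takes ferritin to lysosomes, at 1.32 were higher, and the iron regulatory proteins Aco1 at -1.24 and Ireb2 at -1.79 were lower on the full total alone, since without globins, S100a8 and S100a9 they had -0.25 and -0.80. Those regulatory proteins bind the element printed above.

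Of the 7 measured genes of heme export, import and breakdown, 3 were higher and 3 lower. Abcg2, a porphyrin exporter, had 5.05, Blvrb, a biliverdin reductase of red cells, 3.47 and Slc48a1, a heme carrier of lysosomal membranes, 1.54. Hmox2, the constitutive heme oxygenase, was lower at -4.27 and Flvcr1, known as a heme exporter, at -3.34, from 3 UMIs, and both remained lower on the smaller total, at -3.29 and -2.35. The third lower call, of Hmox1 at -1.88, ended there at -0.89. Of the 6 measured control genes, Klf1 at 4.67, Gata1 at 3.95 and Eif2ak1, the heme-sensing kinase, at 2.91 were higher, and Bach1, a repressor that heme inactivates, at -1.98 and Pgrmc1 at -1.88 were lower on the full total and within 2-fold on the smaller one, at -0.99 and -0.90.

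The same list was read in the LK groups. In Car1 cells against other LK cells, 15 of 38 measured genes were higher and 1 lower, with a median of 0.82, beside 6.88% and 12.3% of all genes and a median of 0.03. Tspo2 had a log2 ratio of 6.37 (142 against 1.71 CPM), Klf1 5.30, Blvrb 4.12, Steap3 2.71 and Slc11a2 2.10. In Rhd cells against Car1 cells without Rhd, 7 of 37 were higher and 1 lower, beside 5.07% and 11.3% of all genes, with Tfrc at 3.43 (66.3 against 6.16 CPM), Abcb6 at 1.66, Tmem14c at 1.52 and Fam210b at 1.46. In Elane-high cells against other LK cells, 0 of 38 were higher and 7 lower, beside 3.81% and 13.9% of all genes. Tspo2 at -6.30 and Gata1 at -5.12 were among the 7, in a comparison in which the other LK cells hold nearly all the Car1 cells.

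Likeness of pattern was measured as Pearson's r of log2(CPM + 1) over 17 profiles, each a marker class of cells in 1 library with at least 30 cells, for 10309 genes. The profiles share libraries and differ in depth, so the values are descriptions. The genes most like Alas1 were Rtn3 (r = 0.969), Tmed3 (0.967), Sec61b (0.919), Lta4h (0.919) and Palm (0.906). Alas1 had negative r with each of the 8 other genes, from -0.50 for Alad to -0.71 for Ppox. The genes most like Alas2 were Slc4a1, the red cell anion exchanger (0.987), Apol11b (0.945), Mki67 (0.944), Trim10 (0.934) and Lbr (0.930).

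Among the genes most like Fech were Fam210b (0.958), Pigq (0.951), Ubac1 (0.948) and Ppox (0.947). Slc25a37 was most like F930017D23Rik (0.975), Ypel4 (0.968), Gm867 (0.965), Hbq1b, an alpha-like globin gene (0.959) and Snx22 (0.956). Among the 9 genes, Alas2 was most like Slc25a37 (0.874) and least like Alad (0.294) apart from Alas1, while Fech had 0.944 with Uros and 0.940 with Cpox.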

How the data were processed

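Per the file headers and the values, the deposited values are counts of UMIs for each gene in each barcode, in whole numbers and not normalized. Per the submitters' processing notes, the authors used Cell Ranger 4.0.0 and the build mm10. For the annotation release and cell calling, no setting is given in the sources used here. Cells were kept with at least 200 genes, at most 10% mitochondrial UMIs and no doublet call by Scrublet in scanpy 1.11.5 (seed 0), which marked 3 LSK, 3 LK and 73 TBM cells. Cells with few mRNAs and doublets inside a type can escape these filters.

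Counts were summed per library and cell group and scaled to CPM. Intervals were exact at 95%: Poisson for CPM, conditional binomial for ratios and Clopper-Pearson for shares. UMIs count molecules, and intervals cover counting error alone. A count of 0 was set at a floor of 3 UMIs per side in a fold. Counting at the 3′ end does not scale with transcript length, and genes may still be captured unequally. The ratio code was tested on simulated data. Python 3.11.15, numpy 2.4.6, scipy 1.17.1 and pandas 2.3.3 were used. Alternatives are in the closing section.

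The named genes are the 9 members, the pathway genes at least 2-fold higher in globin-rich TBM cells and at most 2 others per role. The members, the cell groups and the lists were chosen with earlier results of these data known, and the classes by globin, Elane and Rhd were set with the values in view. Coordinates came from GENCODE M21, which matched 32158 of 32285 gene identifiers, and promoter windows from RefSeq. A promoter for Fech is not shown here, and Slc25a37 had none in the table used. Some genes counted in the lists are not reported here by name.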

Additional observations from a re-analysis of the deposited data

How the results depend on the processing

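The counts of genes at least 2-fold higher or lower were recomputed with every deposited barcode, with doublets kept, with equal weight for each cell, without globin, S100a8 and S100a9 UMIs in the total, with median-of-ratios size factors, with minimums of 1 and 100 UMIs, with a 1.5-fold limit and with looser or stricter limits of the cell groups. Alas2 shares were also recomputed without the cell with most Alas2 UMIs. Of these counts and Alas2 shares, 167 stayed within 1.5 times or within their interval and 7 moved. Some of the 167 could not move, as where a group had no Alas2 UMI to leave out. A change from 6 to 8 lower genes in LK against TBM is among those within 1.5 times. These counts do not show the direction of single genes, and small ratios could change sign. Fech, slightly higher in LSK than in LK on the full total, had a log2 ratio of -0.17 with size factors. Slc25a37, slightly lower in Elane-high than in other LK cells, had 0.13. In Car1 cells of LK, equal weight for each cell gave 3 higher genes in place of 6. In Rhd cells of LK, the 1.5-fold limit gave 6 and a limit of 5 Rhd UMIs, chosen after seeing the data, gave 5 higher genes in place of 3. In Elane-high LK cells, equal weight and size factors gave 0 lower genes and the 1.5-fold limit 3, in place of 1. The Alas2 share in TBM Rhd cells was 99.9% with a stricter limit, in place of 99.2%. Apart from the wider limit itself, the cause was not tested. Of single levels and shares of cells, 48 moved and 60 did not. Leaving globins, S100a8 and S100a9 out of the total for the pathway genes, an alternative chosen after seeing the data, gave 3 lower genes in globin cells in place of 9. No paired analysis was possible because each population is 1 library. Depth limits Alas2 in LSK and LK, where the floor of 3 UMIs stands at 0.253 and 0.0601 CPM.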
